A study of Mus musculus with 10 samples.

Results

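The Reg family comprises small secreted C-type lectins. Its 7 listed mouse genes, Reg1, Reg2, Reg3a, Reg3b, Reg3d, Reg3g and Reg4, were chosen by name from the 22180 genes measured in mouse jejunum. The choice was made with earlier results of these data known. All 7 were on the array, each with 1 probe set. In knockout jejunum Reg3g rose 4.61-fold, and it was the only member past the test. Reg3b had a higher mean (1.96-fold) and Reg3a, Reg4 and Reg1 had lower means in knockout (1.84-fold, 2.27-fold and 3.85-fold), none of which passed, while Reg2 and Reg3d were dim and differed by less than their spread between arrays.

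Levels were measured on 10 Affymetrix arrays, 5 of knockout and 5 of control mice. Knockout mice were Pcyt1aLoxP/LoxP;VilCreERT2, that is, they had floxed alleles of Pcyt1a, which encodes the rate-limiting enzyme of phosphatidylcholine synthesis, and a tamoxifen-inducible Cre under the villin promoter, which drives it in epithelial cells of the gut. Control mice were Pcyt1aLoxP/LoxP without Cre. All were females aged 10 to 12 weeks, were given tamoxifen for 5 days and high-fat food for 3 days, and were then fasted overnight and fed the same food for 2 hours before 3 cm of mid small intestine was taken. Only the knockout group had Cre, so active Cre and loss of Pcyt1a cannot be told apart in this comparison. The piece also holds cells in which villin is silent, and nothing in the labels ties each array to an animal of its own, so the p-values reflect spread among arrays that could be partly technical.

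Epithelial cells of the small intestine release Reg3g and Reg3b into the lumen, where they bind bacterial surfaces. Reg3g kills mainly Gram-positive bacteria and holds them away from the epithelium, and Reg3b acts mainly on Gram-negative ones. In mice both genes are induced by bacteria through Toll-like receptors and the adaptor MyD88, and by interleukin-22, whose receptor on epithelial cells acts through the transcription factor STAT3. Reg1 and Reg2 are known best as secreted products of pancreatic acinar cells and Reg1 is also made in the upper small intestine, while Reg4 is made by secretory cells of the gut.

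In the RefSeq gene table (assembly GRCm38.p6), 6 of the 7 genes form a cluster on chromosome 6, in the order Reg3b, Reg3d, Reg3a, Reg2, Reg1, Reg3g, with 1 other annotated gene, Gm52853, in the same span, and Reg4 lies on chromosome 3. RefSeq promoter windows of 300 bases, 250 before and 50 after the annotated start, were found for all 7. The windows of Reg3g (chr6:78468825-78469124, minus strand), Reg3b (chr6:78370635-78370934, plus strand) and Reg3a (chr6:78380459-78380758, plus strand) are shown because these close relatives differed in direction between the groups. Each is written 5′ to 3′ on its gene's strand. Capitals in Reg3g mark its longest run shared with Reg3b, and in the others the longest run shared with Reg3g.
Reg3g: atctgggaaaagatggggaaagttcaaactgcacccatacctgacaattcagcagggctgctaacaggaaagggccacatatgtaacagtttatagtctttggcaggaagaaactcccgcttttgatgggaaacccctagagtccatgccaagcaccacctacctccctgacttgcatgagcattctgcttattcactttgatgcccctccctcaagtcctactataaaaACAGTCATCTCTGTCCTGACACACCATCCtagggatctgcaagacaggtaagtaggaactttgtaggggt
Reg3b: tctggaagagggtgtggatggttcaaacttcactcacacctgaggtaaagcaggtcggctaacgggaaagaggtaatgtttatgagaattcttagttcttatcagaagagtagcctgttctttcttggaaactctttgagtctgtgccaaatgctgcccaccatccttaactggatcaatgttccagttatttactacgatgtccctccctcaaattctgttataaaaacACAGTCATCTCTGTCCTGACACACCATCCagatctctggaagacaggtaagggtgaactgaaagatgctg
Reg3a: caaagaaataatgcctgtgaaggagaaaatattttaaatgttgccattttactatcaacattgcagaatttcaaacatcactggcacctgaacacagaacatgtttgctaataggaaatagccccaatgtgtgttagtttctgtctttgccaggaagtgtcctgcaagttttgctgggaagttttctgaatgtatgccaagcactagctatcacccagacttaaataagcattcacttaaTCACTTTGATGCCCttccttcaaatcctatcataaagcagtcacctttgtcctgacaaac

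The run shared by Reg3g and Reg3b is 29 bases long and begins 20 bases before the start in both genes, so it covers the start itself. In Reg3a the longest run shared with Reg3g is 14 bases, and it begins 10 bases before the start there. Other pairs of members shared runs of 6 to 12 bases. In pairwise alignment 71.4% of 294 aligned bases were identical between Reg3g and Reg3b and 73.7% of 243 between Reg3g and Reg3a, against 60.8% to 69.7% in the other pairs of members. Pairs with Reg4, at 61.4% to 67.8%, lay inside that range. A search of both strands for 4 motifs, chosen after these windows had been read, gave matches that differed among relatives. The STAT motif TTCNNNGAA was in 2 of 7 windows, at 129 bases before the start in Reg3b and at 238 in Reg3d, and in 8.3% of the 32851 promoter windows of the table. The interleukin-6 response element CTGGGAA was in 4 of 7 (Reg3g at 248 bases before the start, Reg3a at 77, Reg3d and Reg1), against 11.1% of all windows. In Reg3d it overlaps the STAT match. A match to the NF-κB consensus was in 1 of 7, Reg3g, at 123 bases before the start, against 8.46% of all. The letters TATAAA were found in Reg3g, Reg3b, Reg2 and Reg1 at 27 to 30 bases before the start, with a further match on the opposite strand in Reg3g and in Reg1, and in 13.6% of all windows. These matches describe letters in the window and were not tested for use.

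Values are log2 of the deposited RMA intensities, and a group difference is knockout minus control. Pcyt1a itself was at 7.24 to 7.66 in knockout arrays and 8.95 to 9.51 in control arrays, the direction that the labels imply. The piece was rich in enterocyte transcripts in both groups: all 11 listed enterocyte markers were brighter than the median probe set, and their list mean differed by -0.05. Knockout 1 and control 5 stood apart. Knockout 1 had the lowest mean of the ileum marker list of all 10 arrays, -0.95, against 0.59 to 1.21 in the other knockouts, and control 5 had the lowest Paneth list mean, -2.19, against 0.08 to 0.78 in the other controls. Results on the members are therefore also given without these 2 arrays. In bulk tissue, fewer cells of a type and less RNA per cell cannot be told apart.

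Reg3g, the bactericidal lectin, rose in knockout. Its log2 intensity was 12.94, 13.03, 12.25, 13.11 and 12.95 in knockouts 1 to 5, against 10.71, 11.61, 10.11, 10.28 and 10.55 in controls 1 to 5. Every knockout array lay above every control array, with a gap of 0.64 between the lowest knockout, knockout 3, and the highest control, control 2. The mean was 12.86 ± 0.35 in knockout and 10.65 ± 0.58 in control (SD, n = 5 each), so that knockout exceeded control by 2.20 (SE 0.25, limma adjusted p = 0.00589, 95% confidence interval 1.66 to 2.75). As a fold change this is 4.61-fold higher (3.15 to 6.74). A two-sided exact permutation test gave p = 0.00794, the lowest value possible with 252 assignments of the arrays. Over all 22180 genes, 0.171% were called higher and 1.2% had all knockout arrays above all control arrays. Without knockout 1 and control 5 the difference was 2.16 (adjusted p = 0.0130), and with any 1 array left out it lay between 2.07 and 2.44 and passed each time. With each array's ileum list mean added as a covariate it was 2.01 (SE 0.35) and no longer passed (adjusted p = 0.141). That list mean itself differed by 1.07 between groups, so this fit is less precise.

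Reg3b, the close relative of Reg3g, had higher values in most knockout arrays and did not pass. Its log2 intensity was 13.69, 13.51, 12.95, 13.69 and 13.53 in knockouts 1 to 5, against 12.14, 12.84, 12.52, 12.04 and 13.00 in controls 1 to 5. The groups overlapped through 1 array of each: knockout 3, the lowest knockout, lay just below control 5, the highest control, and the other 4 knockouts lay above all controls. Its mean was 13.47 ± 0.31 in knockout and 12.51 ± 0.42 in control (SD, n = 5 each), which is 0.97 higher in knockout (SE 0.20, limma adjusted p = 0.0683, two-sided exact permutation p = 0.0159). As a fold change this is 1.96-fold, with a 95% confidence interval of 1.45 to 2.63. Without knockout 1 and control 5 it was 1.04 and passed (adjusted p = 0.0453), and with the Paneth list mean as a covariate it was 1.01 and passed (adjusted p = 0.0251). It did not pass in 20 of 23 alternatives, among them all 10 omissions of 1 array (limma adjusted p 0.0519 to 0.181). With the ileum list mean as a covariate it was 0.998 (adjusted p = 0.465). On the linear scale its intensity reached 13245.4 in knockout 1, close to 15278.7, the highest value in the whole table, and whether the scanner's upper range compressed this difference was not tested.

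**Figure D1:**
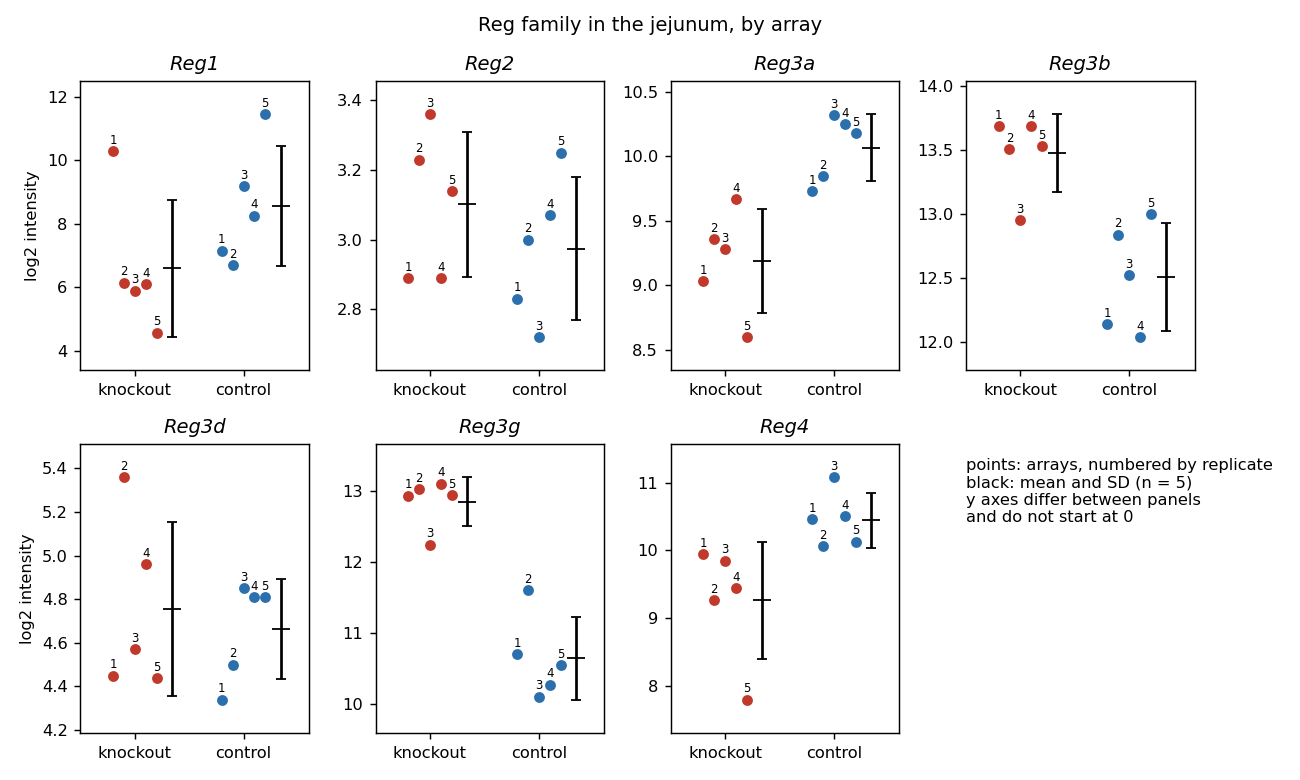
Log2 intensity (y axis) of the 7 Reg genes in knockout and control arrays (x axis). Points are single arrays numbered by replicate, and black bars are the mean and SD of 5. Reg3g lies higher in all knockout arrays, Reg3a and Reg4 lie lower in all of them, and Reg1 spreads over 5.72 log2 units in knockout and 4.75 in control.

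Reg3a, which lies between Reg3d and Reg2 in the same gene cluster, was lower on all 5 knockout arrays. Its log2 intensity was 9.03, 9.36, 9.28, 9.67 and 8.60 in knockouts 1 to 5, against 9.73, 9.85, 10.32, 10.25 and 10.18 in controls 1 to 5. The groups did not overlap, but only 0.06 separated knockout 4 from control 1. Its mean was 9.19 ± 0.40 in knockout and 10.07 ± 0.26 in control (SD, n = 5 each), giving -0.88 (SE 0.18) with a 95% confidence interval from -1.28 to -0.48, and it did not pass over all genes (limma adjusted p = 0.0709). The exact permutation p, two-sided, was 0.00794. Of all genes, 1.56% had every knockout array below every control array and 0.171% were called lower. Without knockout 1 and control 5 the difference was -0.81 (adjusted p = 0.131), and with the Paneth list mean as a covariate it was -0.90 and passed (adjusted p = 0.0468). It did not pass in 21 of 23 alternatives, among them all 10 omissions of 1 array (limma adjusted p 0.0637 to 0.158). With the ileum list mean as a covariate it was -0.85 (adjusted p = 0.511).

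Reg3g and Reg3b, which both had higher means in knockout, can be set side by side through the log2 ratio of the 2 genes on each array, a quantity that a shift of a whole array does not alter. The ratio of Reg3g to Reg3b was -0.75, -0.49, -0.70, -0.58 and -0.58 in knockouts 1 to 5, against -1.43, -1.23, -2.40, -1.77 and -2.44 in controls 1 to 5. It was higher in all knockouts than in any control, with an SD of 0.11 in knockout and 0.55 in control. Its group difference of 1.24 restates the differences given above for each gene. Reg3b was near the top of the table's range in knockout, and whether compression there altered this ratio or its SD was not tested. The ratio of Reg3g to Reg3a was 2.97 to 4.35 in knockouts, against -0.21 to 1.75 in controls, and that of Reg3b to Reg3a was 3.67 to 4.93 in knockouts, against 1.79 to 2.98 in controls. Since Reg3a was set here beside relatives that differ in the opposite direction, the separation of these last ratios restates the values above. The ratios compare how the genes differed between groups and say nothing of which gene is more abundant, since each has its own probes. Whether the probe sets of these relatives can bind each other's transcripts was not tested. Within the groups, Reg3g and Reg3b deviated in the same direction in all knockout arrays and in controls 2 and 4. In controls 1, 3 and 5 they deviated in opposite directions, with Reg3b in control 3 close to its mean (12.52 against 12.51). The Pearson r of their deviations from the group means over the 10 arrays was 0.58 (Spearman's rho 0.61), and it was 0.28 without control 4 and knockout 3, so it rests on those arrays.

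Reg4, which is made by secretory cells of the gut, did not pass, although all 5 knockout arrays were lower. Its log2 intensity was 9.95, 9.27, 9.85, 9.44 and 7.80 in knockouts 1 to 5, against 10.46, 10.06, 11.08, 10.50 and 10.13 in controls 1 to 5. Knockout 5 was the lowest and the gap between the groups was 0.11. Its mean was 9.26 ± 0.86 in knockout and 10.45 ± 0.40 in control (SD, n = 5 each), which gives -1.18 (SE 0.35, limma adjusted p = 0.189) and a 95% confidence interval from -1.94 to -0.42. The exact permutation p was 0.00794, two-sided, and without knockout 5 the difference was -0.82 (adjusted p = 0.133). It was -1.43 without knockout 1 and control 5 (adjusted p = 0.129) and -0.48 with the ileum list mean as a covariate (adjusted p = 0.862). Of 13 enteroendocrine markers, 12 also had lower values in knockout and 2 fell, Gip (-0.76, SE 0.11, adjusted p = 0.0191) and Sst (-0.71, SE 0.12, adjusted p = 0.0296), which encode an incretin and somatostatin. Both calls ended with the replicate number as a block (adjusted p = 0.0624 for Gip and 0.0815 for Sst) and with the ileum covariate (0.369 and 0.465), Sst did not pass with all probe sets tested (0.0771), and with 1 array left out Gip did not pass in 5 and Sst in 9 of 10 cases, with adjusted p up to 0.0657 and 0.0797. The list's summed intensity was 3038 to 3681 in knockout and 3792 to 5184 in control. Within the groups, the Pearson r of the deviations of Reg4 with those of the enteroendocrine list mean was 0.55 over the 10 arrays (Spearman's rho 0.47) and 0.15 without control 5 and knockout 5. With the proliferation list it was 0.84 (rho 0.85, and 0.62 without control 3 and knockout 5), and with the Paneth list 0.35 (rho 0.42, and 0.91 without control 5 and knockout 1). With the goblet list it was 0.39 (rho 0.22, and -0.33 without control 5 and knockout 5). With the ileum list it was -0.63 (rho -0.70, and -0.34 without knockouts 1 and 5). With the interleukin-22, interleukin-6 and STAT3 list given below it was -0.83 (rho -0.59, and -0.54 without control 3 and knockout 5). The part of these cells, of position or of signalling in the Reg4 values was not tested.

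Reg1 varied more between arrays than any other member. Its log2 intensity was 10.29, 6.14, 5.89, 6.10 and 4.57 in knockouts 1 to 5, against 7.15, 6.69, 9.18, 8.25 and 11.44 in controls 1 to 5. The groups overlapped through knockout 1, and the other 4 knockouts lay below all controls. The mean was 6.60 ± 2.16 in knockout and 8.54 ± 1.89 in control (SD, n = 5 each), which gives -1.94 (SE 1.04, limma adjusted p = 0.497, two-sided exact permutation p = 0.183) and a 95% confidence interval from -4.20 to 0.31. The highest arrays of the groups, knockout 1 and control 5, were the same arrays that stood apart in the marker lists. The difference was -2.87 without knockout 1 (adjusted p = 0.125), -1.22 without control 5 (adjusted p = 0.719) and -2.14 without both (adjusted p = 0.0963), and it did not pass in any of these. Reg1 was low where ileum markers were high. The Pearson r of deviations from the group means was -0.80 (Spearman's rho -0.82) over the 10 arrays and -0.47 without knockouts 1 and 5, and with the ileum list mean as a covariate the difference turned to 0.78 (adjusted p = 0.897). Since Reg1 is abundant in pancreas, acinar markers were read too. Of 16 measured, 10 were dimmer than the median probe set, 10 had lower and 6 higher values in knockout, and 0 passed. The 3 with the smallest p were Sycn (-0.32, SE 0.13), Cela3b (0.28, SE 0.11) and Clps, which encodes the lipase cofactor colipase (-0.89, SE 0.44). The list's summed intensity was 740 to 1261 in knockout and 861 to 2297 in control. In knockout 1 and control 5 that sum was 934 and 861. Clps, at 8.20 in knockout 1 and 8.05 in control 5, was the brightest of this list, so the sum does not weigh all acinar genes alike. The Paneth list mean was also the lowest of its group on these arrays, at -0.85 and -2.19. The part of pancreatic tissue in the Reg1 values was not tested.

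Reg2 and Reg3d were dim on every array. Reg2, like Reg1 a product of pancreatic acinar cells, had log2 intensities of 2.89 to 3.36 in knockout and 2.72 to 3.25 in control, and differed by 0.13 (95% confidence interval -0.14 to 0.40, limma adjusted p = 0.749). Reg3d, also known as INGAP in the RefSeq table, had 4.44 to 5.36 in knockout and 4.34 to 4.85 in control, and differed by 0.10 (95% confidence interval -0.29 to 0.48, limma adjusted p = 0.886). Detection calls were not used, so it is not known whether these signals are above background. Without knockout 1 and control 5 the differences were 0.25 for Reg2 and 0.21 for Reg3d. Neither could be detected at this precision.

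**Figure D2:**
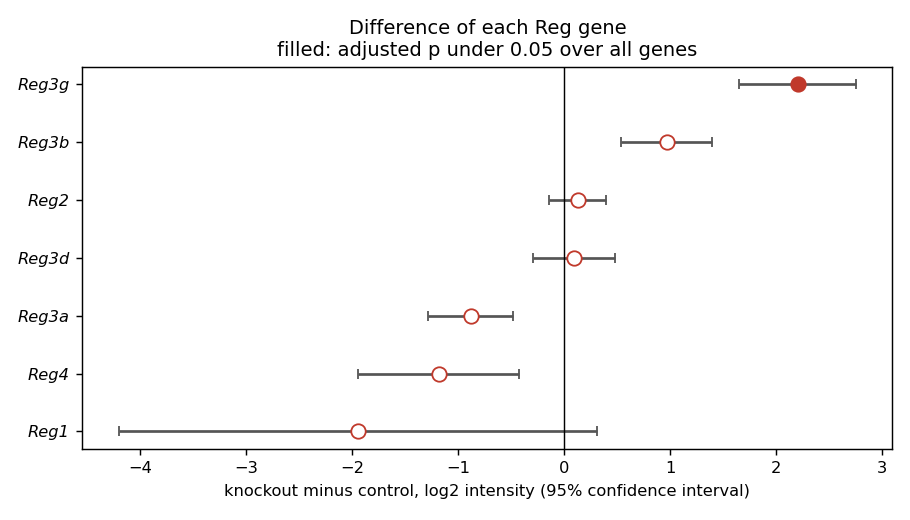
Difference of each Reg gene, knockout minus control, on the log2 scale (x axis), with 95% confidence intervals from limma. The filled point passed at an adjusted p under 0.05 over all genes (Reg3g, 2.20), and open points did not. The interval of Reg1 is the widest, from -4.20 to 0.31.

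In counts, 1 of 7 members rose, 0 fell and 6 did not pass, where 0.343% of all 22180 genes were called in either direction. The groups did not overlap in 3 members, 1 above and 2 below, against 2.77% of all genes. Means were higher in 4 and lower in 3, and the median difference was 0.10, against -3.54e-04 over all genes, of which 90% lay between -0.30 and 0.32. At an unadjusted p under 0.05 there were 4 members (Reg3g, Reg3b, Reg3a and Reg4), where 12.1% of all genes were. The family was chosen with earlier results of these data known, so these counts are no test of it against all genes. Differences did not follow position on chromosome 6. From 1 end of the cluster to the other they were 0.97 for Reg3b, 0.10 for Reg3d, -0.88 for Reg3a, 0.13 for Reg2, -1.94 for Reg1 and 2.20 for Reg3g. Of the next protein-coding neighbours, Ctnna2 and Lrrtm1 before Reg3b had -0.12 and 0.08, and Gm20594 and Lrrtm4 after Reg3g had -0.08 and 0.10, none past the test.

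Extl3, which encodes an exostosin-like glycosyltransferase described as a receptor for Reg proteins, did not pass (0.14, SE 0.12, limma adjusted p = 0.709), with 7.34 ± 0.09 in knockout and 7.20 ± 0.27 in control (SD, n = 5 each).

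Over all genes, none of the listed genes of the pathways known to induce Reg3g passed. In the list of interleukin-22, interleukin-6 and STAT3 signalling, 0 of 18 genes passed, 9 had higher and 9 lower values in knockout, and the median difference was -0.03. Its 3 members with the smallest p were Osmr, the oncostatin M receptor (-0.71, SE 0.20, limma adjusted p = 0.168), Socs3, a feedback inhibitor induced by STAT3 (0.54, SE 0.16, adjusted p = 0.180), and Il18, an epithelial cytokine (0.63, SE 0.19, adjusted p = 0.214). Osmr passed without knockout 1 (-0.87, adjusted p = 0.0359) and without knockout 1 and control 5 together (-0.95, adjusted p = 0.0376). Socs3 was at 7.73 to 8.21 in knockout arrays and at 6.78 to 7.66 in control arrays, without overlap. Stat3 did not overlap either, at 10.14 to 10.43 in knockout and 9.86 to 10.11 in control (0.25, SE 0.09, limma adjusted p = 0.296). Of all genes, 1.2% had all knockout arrays above all control arrays. Fut2 had the largest difference of the list, with overlap (1.20, SE 0.38, adjusted p = 0.226). Il22 itself was very dim, at 1.29 in knockout and 1.38 in control. In the list of Toll-like receptors and MyD88, 0 of 16 measured genes passed and the median was 0.03. Myd88, the adaptor, was at 8.84, 8.90, 8.34, 8.91 and 8.99 in knockouts 1 to 5, against 8.24, 8.25, 8.30, 8.09 and 7.99 in controls 1 to 5. Its groups did not overlap, and its difference of 0.62 (SE 0.12) had an adjusted p of 0.0600. It passed without knockout 3 (0.74, adjusted p = 0.0163), with the Paneth covariate (0.0473) and without the dimmest 30% of genes (0.0467). Tlr3, a receptor for double-stranded RNA, and Tlr1, a receptor for bacterial lipopeptides, had 0.59 (SE 0.18) and 0.52 (SE 0.20). Within the groups, the Pearson r of the deviations of Reg3g with the first list mean was 0.53 (rho 0.59, and 0.57 without control 3 and knockout 5). With the Toll-like receptor list mean it was 0.53 (rho 0.54, and 0.68 without control 1 and knockout 5). The part of these pathways in the Reg3g values was not tested.

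Among 16 other secreted or oxidative defence genes 0 passed, 11 had higher and 5 lower values, and the median was 0.10. The 3 with the smallest p were Duox2, the oxidase that makes hydrogen peroxide at the epithelial surface (2.41, SE 0.51, limma adjusted p = 0.0728), Lypd8, which binds flagella (0.50, SE 0.12, adjusted p = 0.115), and Lcn2, a siderophore-binding protein (0.61, SE 0.16, adjusted p = 0.132). Duox2 was at 6.34, 8.93, 7.40, 8.61 and 9.39 in knockouts 1 to 5, against 6.24, 6.53, 5.65, 5.01 and 5.20 in controls 1 to 5. In knockout 1 Duox2 thus lay inside the control range, where Reg3g did not. Lypd8 and Lcn2 in knockout 1 lay above all controls, at 13.37 against up to 13.06 and at 6.56 against up to 6.25. Nos2 had the largest difference of this list (2.64, SE 0.75, limma adjusted p = 0.170). Every knockout array of Nos2 lay above all controls, with 5.93 in knockout 1 against up to 5.75 in controls. Duox2 passed without knockout 1 (2.86, adjusted p = 0.00837) and without knockout 1 and control 5 (2.72, adjusted p = 0.0186).

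**Figure D3:**
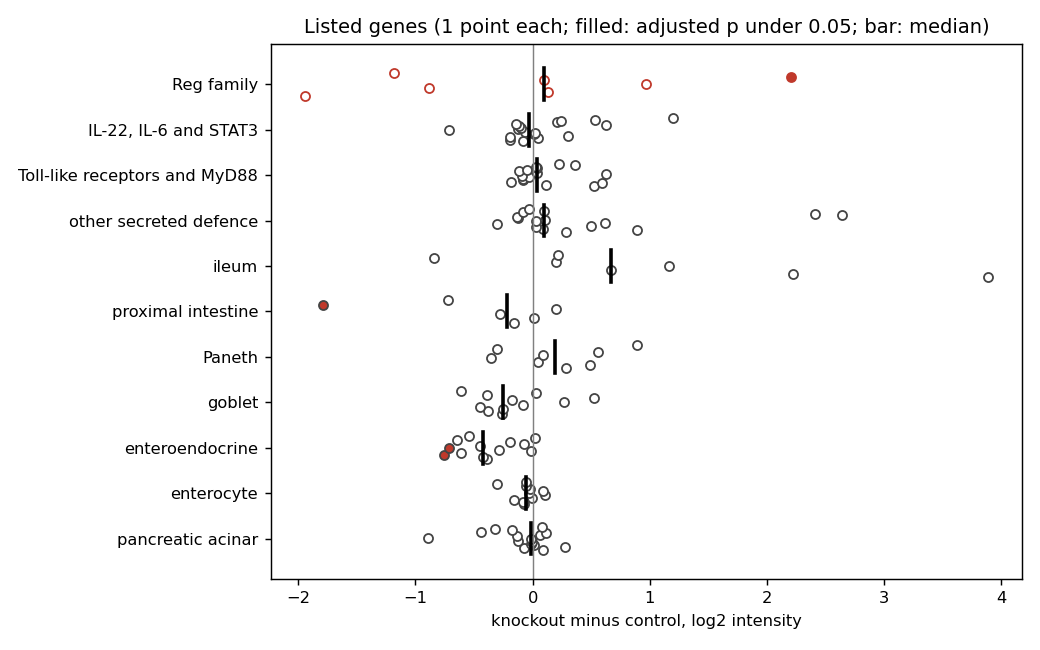
Difference of every measured gene of the Reg family and 10 other lists, knockout minus control on the log2 scale (x axis). Each point is a gene, filled points passed at an adjusted p under 0.05, and bars are list medians. The Reg family runs from -1.94 to 2.20 around a median of 0.10.

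Markers of position along the intestine were read on the same arrays. Of 7 measured ileum markers, 6 had higher values in knockout and 0 passed, with a median of 0.67. Fabp6, the ileal bile acid-binding protein, was at 4.31, 11.20, 8.59, 9.46 and 10.25 in knockouts 1 to 5, against 4.36, 5.38, 4.90, 4.94 and 4.81 in controls 1 to 5, a difference of 3.89 (SE 0.97, limma adjusted p = 0.120). Fgf15, a bile acid-induced hormone, had 1.16 (SE 0.26, adjusted p = 0.0867), and Cubn, a receptor for vitamin B12 uptake, went the other way at -0.84 (SE 0.19, adjusted p = 0.0881). That Fgf15 value is from its brightest probe set, and the mean of its probe sets differed by 0.64 (adjusted p = 0.132). Without knockout 1 both Fabp6 (5.00, adjusted p = 9.49e-04) and Fgf15 (1.44, adjusted p = 0.00413) passed, as they did without knockout 1 and control 5 (adjusted p = 0.00339 and 0.00740), and Fgf15 passed with array weights (0.0395). Knockout 1 was set apart by its low mean of this list, to which both genes belong. Its omission is therefore not an independent test of them. The list's summed intensity was 3892 to 9545 in knockout and 6294 to 8013 in control. Cubn, with means of 11.61 in knockout and 12.45 in control, was the brightest of this list, so the sum does not weigh all ileum genes alike. In the list of the proximal intestine S100g fell (-1.79, SE 0.33, adjusted p = 0.0469), which encodes a calcium-binding protein, and 5 of 6 did not pass. The S100g call ended with all probe sets tested (0.105), trend and robust fitting (0.0606), the replicate block (0.0773) and the ileum covariate (0.566), and in 9 of 10 omissions of 1 array, with adjusted p up to 0.151. Within the groups, the Pearson r of deviations with the ileum list mean over the 10 arrays was 0.24 for Reg3g (rho 0.58, and 0.68 without knockouts 1 and 5), -0.05 for Reg3b (rho -0.02) and -0.06 for Reg3a (rho -0.28). Knockout 1 had a low ileum list mean, -0.95, and Fabp6 below all controls, and its Reg3g, at 12.94, lay among the other knockouts and 1.34 above the highest control. Control 2, with the highest ileum list mean of the controls at -0.10, also had their highest Reg3g value, 11.61. The ileum list mean differed by 1.07 between groups, so as a covariate it overlaps with group and cannot separate position from knockout. The part of position in the difference of Reg3g was not otherwise tested.

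**Figure D4:**
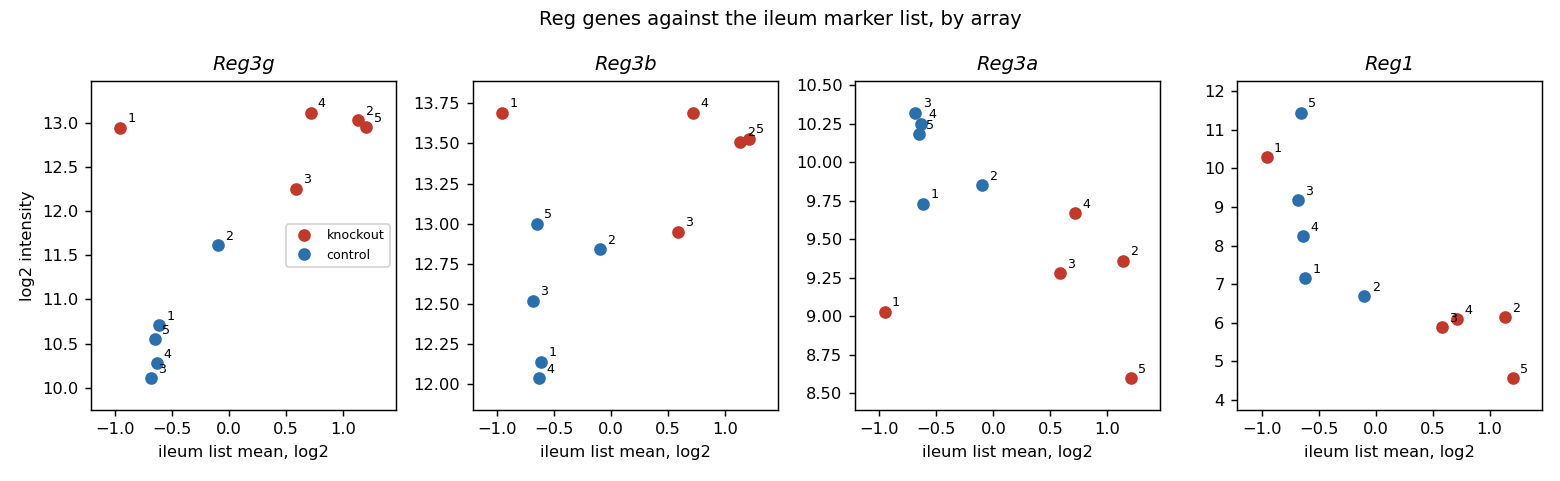
Log2 intensity of Reg3g, Reg3b, Reg3a and Reg1 (y axes) against the mean of the ileum marker list on the same array (x axis, log2 relative to each gene's mean), with arrays numbered by replicate. Knockout 1 has the lowest ileum list mean, -0.95, with Reg3g at 12.94 and Reg1 at 10.29.

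Other cell types were read from their markers. Paneth cells had 8 measured markers, 0 past the test, and a summed intensity of 15105 to 44402 in knockout and 5360 to 41579 in control. Goblet cells had 11, 0 past the test and 8 lower, with a summed intensity of 24726 to 30803 in knockout and 26922 to 33820 in control. Of 8 neutrophil markers, 6 were dimmer than the median probe set and 0 passed. No gene passed among 5 lymphoid, 6 macrophage, 7 proliferation and 6 smooth muscle markers measured. The part of these cells in the Reg values was not tested.

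Likeness was measured as the Pearson r of deviations from the group means over the 10 arrays, among 9694 other named genes with a mean log2 intensity of at least 6. Most like Reg3g were Vmn1r159 (0.93), Nfatc2 (0.92) and Orai2 (0.89). Most like Reg3b were Maco1 (0.94), Ttc9c (0.91) and Selenot (0.90), and most like Reg3a were Ago1 (0.97), Zfp652 (0.96) and Tnfrsf10b (0.95). None of these 9 genes passed the test between groups, and with so many genes and 10 arrays such values describe these arrays alone. No member was among the nearest genes of another.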

How the data were processed

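RNA of mouse jejunum was labelled from 400 ng with the WT Plus kit, per the labels' protocols. The deposited values are linear RMA intensities, made with Affymetrix Expression Console 1.4.1.46 per the submitters' processing notes; its other settings are not stated there. Array medians were 45.8 to 48.1. The number of arrays limits the precision.

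Groups came from sample titles. Log2 was taken. Probe sets with 1 gene symbol in the platform annotation were kept (23521 of 41345), and the brightest per gene over the 10 arrays was used. Limma 3.58.1 (R 4.3.3) was run on all 22180 genes with group as the only term, Benjamini-Hochberg adjustment and a threshold of 0.05, after a check on simulated data. Exact permutation tests enumerated 252 assignments.

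Members and lists were chosen with earlier results of these data known. Besides the members, the naming rule took Pcyt1a, Extl3, up to 3 genes per list with the smallest p, and the 3 genes most like Reg3g, Reg3b and Reg3a. Fewer were printed for marker lists. Il22, Stat3, Fut2, Nos2 and the chromosomal neighbours lie outside the rule and were picked after values were seen. Alternatives covered normalization, filters, probe set choice, variance models, covariates and omitted arrays. Promoters were aligned with Biopython 1.88.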

Additional observations from a re-analysis of the deposited data

Results flagged for a closer look

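Among 48 sets of 5 arrays, made of the members, Pcyt1a, Extl3 and the list means in each group, 12 had 1 array far from the others by Dixon's criterion. Chance gives about 1 in 20 for independent sets. These sets are not independent, since the other defence list shares genes with the Paneth and goblet lists, so the same low values can count more than once. Reg1 was high in knockout 1, at 10.29, where the next knockout was at 6.14. Knockout 3 was low for Reg3b (12.95, next 13.51) and for Reg3g (12.25, next 12.94). In list means, knockout 1 was low for ileum (-0.95) and knockout 5 for proliferation (-0.50). Control 5 was low for other defence genes (-0.85), Paneth (-2.19), goblet (-0.27), enteroendocrine (-0.10) and macrophage markers (-0.81). Control 2 was high for ileum markers (-0.10) and control 4 for smooth muscle (1.34, next -0.08).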

How the results depend on the processing

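Reg3g kept its direction in 23 of 23 alternatives and passed in 22, with differences of 2.01 to 2.44 and adjusted p of 3.44e-04 to 0.141. Its groups did not overlap, so no omission or weighting of arrays could change the sign, which holds for Reg3a and Reg4 too. With the ileum covariate 0 members were called higher. The members called higher were 2, Reg3g and Reg3b, with the Paneth covariate, without knockout 1 and control 5 together, and at a threshold of 0.1. Reg3a was the 1 member called lower with the Paneth covariate and at 0.1. With 1 array left out, the members called stayed at 1 higher and 0 lower. The ileum covariate turned the sign of Reg1 (0.78), Reg2 (-0.0065) and Reg3d (-0.075), and omission of knockout 2 that of Reg3d (-0.056, against up to 0.174 without knockout 5).

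Over all genes 76 were called, and 39 probe sets with all probe sets tested, 26 of them standing for the same genes. The count was 142 with array weights, 3 with the ileum covariate, 234 with the Paneth covariate, 186 without knockout 1 and control 5, and 261 at 0.1; the cause was not tested for any of these counts, 39 included, but the threshold. With 1 array left out it ran from 11 (without knockout 2) to 268 (without knockout 1). With the replicate block 27 genes were called, 16 of them among the 76, and Reg3g passed (adjusted p = 0.00423). Same-numbered arrays share only a number: their deviations correlated at -0.13 to 0.12. Dim members, Reg2 and Reg3d, gave no value when the dimmest 30% of genes were left out.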
